A study of Mus musculus with 2 samples.

Results

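Exonic peaks outside promoters are stretches of DNase I-accessible chromatin whose midpoint lies inside an exon of a protein-coding gene and more than 1000 bp from every annotated start of a protein-coding transcript. They were taken from DNase-seq of the testis of 14-day-old male mice of the strain B6CASTF1/J, the first-generation hybrid of C57BL/6J and CAST/EiJ. The data were 2 libraries of 1 untreated group, so no contrast between conditions was possible. Replicate 1 is described as coming from 3 males, and replicate 2 from 1. One donor label is given for both, so their spread may be partly technical. A replicate 1 peak was kept if it overlapped a replicate 2 peak by at least 1 bp, had a deposited value below 3 in both libraries, and met the conditions on exon and distance. This left 3417 of the 101172 replicate 1 peaks, or 3.38%. By the same conditions, 22440 peaks lay in introns and 29518 between genes, and these serve for comparison. Without the demand for overlap, replicate 1 alone gave 4499 exonic peaks and replicate 2 alone 5319. The deposited value is the seventh column of the peak files, a signal whose unit the sources used here do not give. Since it helped to choose the peaks, it is given as a description only.

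DNase I cuts DNA where nucleosomes are displaced, and such accessible stretches usually mark promoters, enhancers and insulators. Inside an accessible stretch, a bound protein can shield a few bases from the enzyme, and this shielded patch is called a footprint. Exons can hold such elements as well, so that one stretch of DNA can both encode amino acids and carry a binding sequence for a transcription factor. At this age the first wave of spermatogenesis has brought germ cells into meiotic prophase, and they share the tubule with Sertoli cells, the somatic cells that nurse them.

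The whole tissue was sampled. A promoter was called open where each library had a peak within 1000 bp of a start of the gene. By this measure promoters were open for 5 of 5 germ cell markers and 5 of 5 Sertoli cell markers, 4 of 5 Leydig cell markers and 4 of 4 markers of peritubular myoid cells. They were open for 2 of 4 endothelial, 1 of 4 leukocyte, 1 of 4 erythroid and 0 of 4 epididymal markers. A peak shared by few cells and a weakly open peak in many cells cannot be told apart in bulk tissue.

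The following sequences show footprints that both libraries placed within coding exons. They were read from the GRCm38 (mm10) reference, which is the C57BL/6J sequence, and are written 5′ to 3′ on the strand of the host gene, with the bases inside the footprint of both libraries in capitals. Lpar5, on the plus strand at chr6:125082055-125082084, encodes a receptor for lysophosphatidic acid and held the coding peak with the highest mean value. Fry, on the plus strand at chr5:150466314-150466343, encodes a microtubule-associated protein of the furry family. Col16a1, on the plus strand at chr4:130067011-130067040, encodes a collagen chain.
Lpar5: gaaGACCGTGCGCCTCCTGCTGGCCAATct
Fry: tgCAGATCCTGGAGGAGCGCCAGCTCTCCa
Col16a1: tgccCTAGCCTGCAGGGGGCGTTGACCgat

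The next sequences are exonic matches to the consensus of CTCF, the zinc finger protein of insulators and chromatin loops, in capitals. They are the matches in the coding and 3′ untranslated peaks with the highest mean values. Mroh6 (minus strand, chr15:75884288-75884317), Pgls (plus strand, chr8:71596108-71596137) and Crh (minus strand, chr3:19694055-19694084) hold theirs in coding sequence of the last exon. Slc4a3 (plus strand, chr1:75559667-75559696) and Lyl1 (plus strand, chr8:84704582-84704611) hold theirs in the 3′ untranslated region.
Mroh6: cgtgtctgcCCAGCAGGTGGCgctgcttgc
Pgls: cgcacgggcGCCCTCTGCTGGttcctggac
Crh: cctcggtggCCACCAGGGGGCgctggagag
Slc4a3: ccgtgtgtaGCCCTCTGGTGGtggtttttg
Lyl1: ctcatcggcGCCCCCTGCTGGaggcgggaa

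The last set shows exonic matches to the consensus of REST, the repressor that binds the RE1 element of neuronal genes, again with the match in capitals. Gja10 (minus strand, chr4:32601323-32601352) and Extl3 (minus strand, chr14:65059001-65059030) hold it in coding sequence. Tas1r3 (minus strand, chr4:155859528-155859557) and Cryba2 (minus strand, chr1:74891705-74891734) hold it in 3′ untranslated sequence.
Gja10: ccagaatTCAGCACCCTGGACAGcaaccgt
Extl3: ctgtgagCTGTCCATGGTGCTGAcgggcgc
Tas1r3: gtgcgggTCAGCACCACGGCCAGcgccagc
Cryba2: ccctgcaTCAGCACCACGGACAGcaccaaa

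Coding sequence held more of the exonic peaks than its length, and 3′ untranslated sequence fewer. Of the 3417 peaks, 1891 (55.3%) had their midpoint in coding sequence, which made up 36.8% of the exonic sequence over 1000 bp from starts. The 3′ untranslated regions held 1099 peaks (32.2%) against 45.1% of the length. Exons of transcripts without coding sequence held 370 (10.8%) against 17.2% of the length, and 5′ untranslated regions held 57 (1.67%) against 0.987% of the length. Per megabase this came to 73.6 coding peaks, 82.6 in 5′ untranslated, 34.9 in 3′ untranslated and 30.8 in noncoding exons. All exons together held 48.9 per Mb, introns 25.2 per Mb and intergenic sequence 18.6 per Mb. In replicate 2 alone, without replicate 1, coding sequence held 117 peaks per Mb. The ratio of the coding density to that of introns was 2.91, and that of 3′ untranslated regions 1.38.

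**Figure D1:**
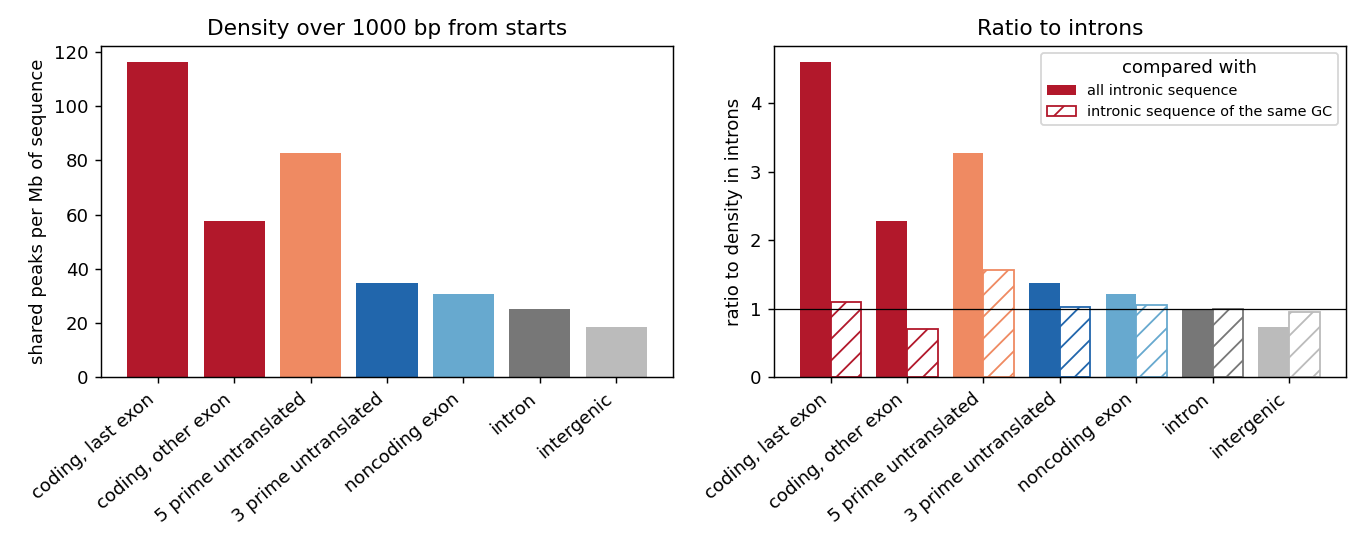
Left, shared peaks per Mb of sequence over 1000 bp from every start, by place; right, the ratio of each density to that of introns (filled bars) and to that of intronic sequence of the same GC (hatched bars), with a line at a ratio of 1. Coding parts of last exons stand at 116 per Mb and a ratio of 4.61, against 1.09 at the same GC.

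Base composition moved with these densities. Of coding sequence, 11.0% had a GC content of 60% or more in the surrounding 200 bp, and this fraction held 998 of the coding peaks (52.8%). Of intronic sequence, 0.753% was as rich in GC and held 8.96% of the intronic peaks. In sequence with a GC content of 45 to 50%, coding sequence held 27.4 peaks per Mb, 3′ untranslated regions 34.3 and introns 30.9. At 50 to 55% the densities were 49.0, 68.4 and 66.6 per Mb, and at 55 to 60% they were 93.5, 135 and 135 per Mb in the same order. At 60% and above they were 354, 331 and 300 per Mb. Coding sequence was thus below introns in each bin under 60% and above them only in the richest bin. When each 1% step of GC was given the density of introns at that GC, 2261 coding peaks were expected where 1891 were found, a ratio of 0.837. For 3′ untranslated regions 1071 were expected where 1099 were found, a ratio of 1.03, and for 5′ untranslated regions 36.2 where 57 were found, a ratio of 1.57. With distance from the nearest start matched as well, these ratios were 0.753, 0.986 and 1.24. The coding excess over introns was therefore not seen at equal GC.

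**Figure D2:**
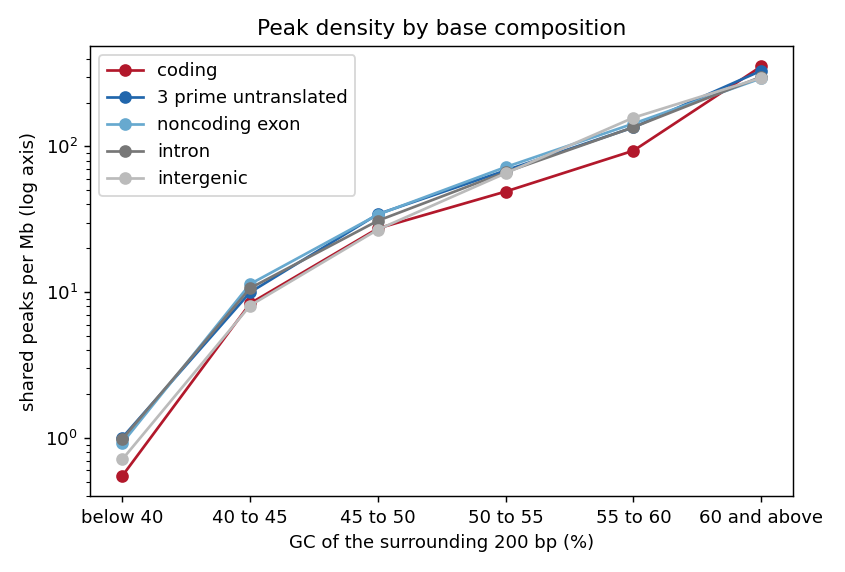
Shared peaks per Mb of sequence (log axis) against the GC content of the surrounding 200 bp, with a line each for coding, 3′ untranslated and noncoding-exon sequence, introns and intergenic sequence; 5′ untranslated sequence is not drawn. All 5 lines climb together, and the coding line lies below the intronic one until the bin of 60% and above, where it reaches 354 per Mb against 300.5 per Mb.

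The last exon holds the stop codon in most genes and most of the 3′ untranslated sequence. It held 1854 of the exonic peaks (54.3%), close to its 53.7% of the length. Within coding sequence, however, 807 peaks fell in last exons and 1084 in others, which gave 116 peaks per Mb of last-exon and 57.8 per Mb of other coding sequence. Coding sequence of last exons also had more bases with a GC content of 60% or more, 14.8% against 9.57%. At the GC of introns the ratios were 1.09 for last and 0.712 for other coding exons, and with distance matched too they were 0.981 and 0.642. The gap between last and other coding exons thus remained at equal GC and distance, though smaller. In 3′ untranslated sequence the order was the other way round, with 1036 peaks in last exons at 34.0 per Mb and 63 in other exons at 61.0 per Mb. However, the exon of a single-exon transcript is not counted as a last exon, and 55 of the 3′ untranslated peaks lay in such exons. The other exons are thus largely not exons upstream of a last one, and this split was not compared at equal GC. Density in coding sequence was 134 per Mb at 1 to 2 kb from the nearest start and 58.9 per Mb at 5 to 10 kb, and stayed near that level beyond 50 kb, at 60.8 per Mb. In introns the same bins gave 47.7, 28.4 and 15.6 per Mb.

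The exonic peaks were slightly wider than intronic peaks and richer in GC and CpG. Their median width was 200 bp, against 183 bp for intronic peaks, and their median GC content was 57.4% against 52.0%. The ratio of observed to expected CpG had a median of 0.421 in exonic and 0.230 in intronic peaks. It was 0.558 in coding peaks, 0.643 in those of coding last exons and 0.276 in 3′ untranslated peaks. Repeat-masked bases made up a mean of 5.72% of an exonic peak and 11.4% of an intronic peak. The median exonic peak lay wholly in exons, and 2587 (75.7%) did so.

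The libraries gave similar values. The median deposited value of exonic peaks was 0.575 in replicate 1 and 0.578 in replicate 2, and that of intronic peaks was 0.527 and 0.566 in the same order. Coding peaks had lower medians, 0.538 and 0.536, than 3′ untranslated peaks, 0.656 and 0.653. The log2 ratio of replicate 2 to replicate 1, centred on the median of all shared peaks, had an SD of 0.35 over exonic peaks. Above 2-fold were 8 exonic peaks (0.234%), where the share among all shared peaks was 0.356%, and more than 2-fold lower were another 8 (0.234%), where it was 0.236%. The authors also deposited a shorter, stricter peak list for each library. Of the exonic peaks, 1742 (51.0%) overlapped a peak in both stricter lists, against 53.2% of the intronic peaks and 63.1% of all shared peaks, strong ones included. The lowest deposited false discovery rate under a peak had a median of 6.84e-05 in replicate 1 and 4.62e-05 in replicate 2 and reached 0.0481 and 0.0488.

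**Figure D3:**
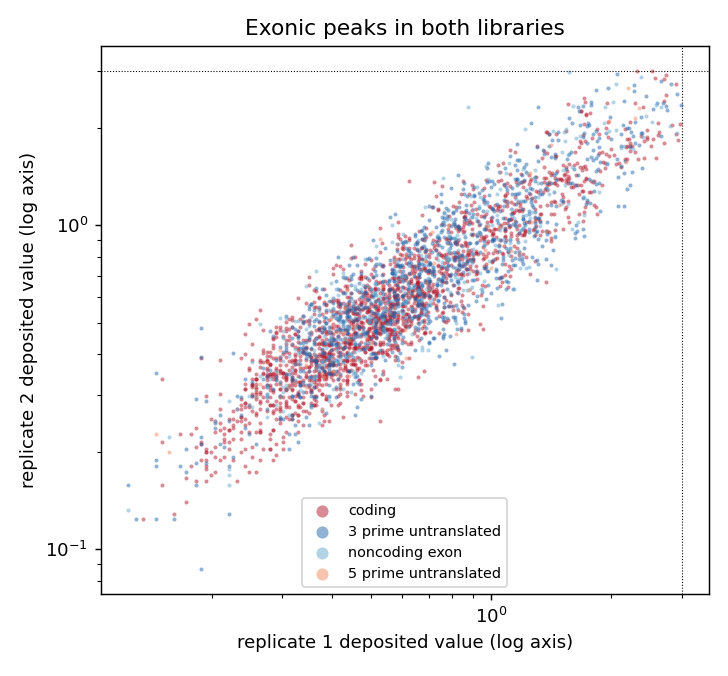
Deposited value of each exonic peak in replicate 2 against that in replicate 1 (log axes), coloured by exon class, with dotted lines at the limit of 3. The classes overlap, with medians of 0.538 and 0.536 for coding peaks and 0.656 and 0.653 for 3′ untranslated peaks in replicates 1 and 2.

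The limit of 3 cut through a continuous range. Just inside lay peaks of Scrt2, a zinc finger repressor, at 2.52 in replicate 1 and 3.00 (before rounding, below the limit) in replicate 2, of Fry at 2.31 and 2.99, and of Vgf, a neuropeptide precursor, at 2.98 and 2.34. Just outside lay Mturn at 3.03 and 2.74, 1500009C09Rik at 3.05 and 1.85, and Ust at 2.31 and 3.05. In all, 99 exonic shared peaks away from starts had a value at or above 3.

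Most exonic peaks held a footprint. The share with at least 1 footprint was 86.5% in replicate 1 and 90.0% in replicate 2, a mean of 88.3% ± 2.46 (SD, n = 2), and it was 90.4% ± 3.59 for intronic peaks. Both libraries placed a footprint in 2759 exonic peaks (80.7%), against 83.6% of intronic peaks. The share was 80.9% for all shared peaks with values below 3, and 83.2% for all shared peaks, strong ones included. Neither library placed a footprint in 143 exonic peaks. The share in both was 76.7% for coding, 86.0% for 3′ untranslated, 82.5% for 5′ untranslated and 85.7% for noncoding-exon peaks. A footprint at the same place, overlapping by at least 50% of both, was found in 53.5% of exonic and 54.3% of intronic peaks. In coding peaks this share was 47.9%, and in 3′ untranslated peaks 61.2%. The exonic peaks held a mean of 2.36 footprints in replicate 1 and 2.68 in replicate 2, with medians of 9 and 10 bp in width.

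Footprints were found more often in peaks with a higher value, so the classes were also compared at like values. Among peaks with a mean value of 0.3 to 0.5, 67.2% of coding, 75.0% of 3′ untranslated and 75.3% of intronic peaks had a footprint in both libraries. Between 0.5 and 1 the shares were 85.4%, 91.6% and 92.6%, and between 1 and 3 they were 96.8%, 99.6% and 98.9%. Coding peaks were thus the lowest in each of these bins. Their mean number of footprints per peak was the highest of these classes in both libraries. Between 0.5 and 1 it was 2.68 in replicate 1, against 2.36 for 3′ untranslated and 2.43 for intronic peaks. The median widths there were 220, 200 and 200 bp. Per 100 bp over all values, however, replicate 1 had 1.00 footprints in coding, 1.20 in 3′ untranslated and 1.13 in intronic peaks. Below 0.3 the shares with a footprint in both libraries were 38.6%, 29.3% (58 peaks) and 45.9%, with coding peaks above the 3′ untranslated ones.

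**Figure D4:**
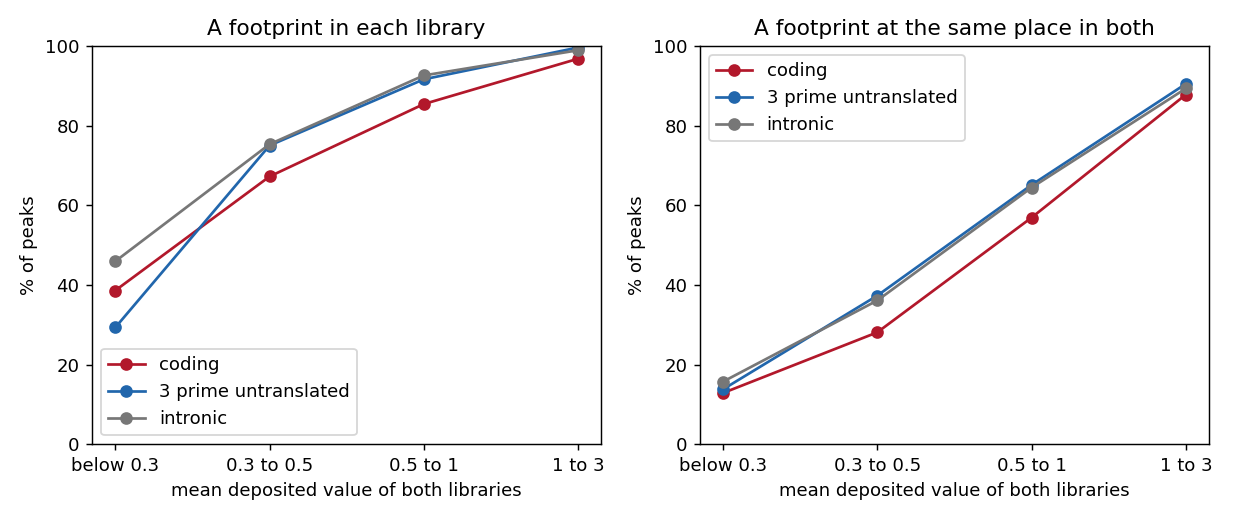
Share of peaks with a footprint in each library (left) and with a footprint at the same place in both (right), against the mean deposited value of both libraries. The lines of 3′ untranslated and intronic peaks run close together above 0.3, and the coding line lies below them, at 56.9% against 65.1% and 64.4% for the same place between 0.5 and 1.

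Of the footprints inside exonic peaks, 8072 in replicate 1 and 9150 in replicate 2, 50.6% and 50.7% were centred on coding bases. Another 32.3% and 31.3% were centred on 3′ untranslated bases, and 5.54% and 6.07% on no exon. The borders of exons carry the splice signals, and 964 exonic peaks (28.2%) crossed one. Among coding peaks 812 (42.9%) did, and among 3′ untranslated peaks 43 (3.91%). Coding exons with a peak had a median length of 802 bp, and 394 coding peaks (20.8%) were wider than their exon. A footprint over a border was found in 136 peaks in replicate 1 and 158 in replicate 2, or 14.1% and 16.4% of those crossing one.

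The coding peaks with the most footprints were wide. Tbr1, a T-box factor of cortical neurons, had a peak of 860 bp in its last exon with values of 1.40 in replicate 1 and 1.36 in replicate 2 and with 17 and 18 footprints. A peak in the last exon of Zfp36l2, a zinc finger protein that promotes decay of messenger RNA, was the widest of all at 1540 bp, with values of 1.16 and 1.11 and 17 and 18 footprints. A second Zfp36l2 peak of 1300 bp overlapped it, with 11 and 16 footprints that it partly shares. Lor, which encodes loricrin of the cornified skin envelope, had a peak of 1340 bp with 12 and 16 footprints and no promoter peak in either library. Only 3, 3, 2 and 2 footprints of these 4 peaks lay at the same place in both libraries. GC contents were 73.5% in Tbr1, 71.8% and 71.2% in Zfp36l2 and 73.9% in Lor.

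By mean value the leading coding peaks were those of Lpar5, 220 bp wide at 2.74 in replicate 1 and 2.91 in replicate 2, and of Apba1, an adaptor protein of synapses, 440 bp wide at 2.90 and 2.73. The Lpar5 peak, whose sequence opens the first set above, had 4 footprints in each library, 3 of them at the same place, and the host promoter had no peak in either library. The Apba1 peak had 13 and 11 footprints, 5 at the same place, with a host promoter value of 3.71 and 3.56. Both libraries thus saw strong coding peaks with a closed and with an open host promoter.

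In 5′ untranslated exons, Eml6 and Foxq1 had the most footprints, 6 and 9 for Eml6 and 6 and 7 for Foxq1. The highest values in this class were those of Ccdc8, at 2.20 in replicate 1 and 2.65 in replicate 2, and of Hoxa3, a homeobox gene of anterior patterning, at 2.34 and 2.30. The Foxq1 and Ccdc8 peaks lay 1192 and 1173 bp from a protein-coding start, not far beyond the limit, and the Hoxa3 peak lay 150 bp from the start of a noncoding gene. Over all exonic peaks 178 (5.21%) lay within 1000 bp of a noncoding start, among them the wide Zfp36l2 peaks described above, at 675 and 835 bp. In 3′ untranslated exons, Foxc1, a forkhead factor, led with 12 footprints in each library over 880 bp, at values of 0.957 and 1.06. It was followed by Ppp1r14a, an inhibitor of myosin phosphatase, with 6 and 10, and Zbtb7b, a zinc finger factor of T cells, with 7 and 8. The highest 3′ untranslated values were those of Dtx1, a ubiquitin ligase of the Notch pathway, at 2.82 and 2.73, and of Slc4a3, an anion exchanger, at 2.92 and 2.55. In noncoding exons, Nbea held 8 footprints in each library, and Katnal1, a katanin subunit that severs microtubules, had the highest mean value, from 2.38 and 2.87.

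Searching the 200 bp around each midpoint on both strands, CTCF matches were found in 192 exonic peaks (5.62%), against 6.95% of intronic peaks and 5.50% of all shared peaks. The share was 2.70% in coding and 9.37% in 3′ untranslated peaks. A footprint in both libraries overlapped a match in 176 of the 192 (91.7%), and in 90.4% of the intronic peaks with a match. Exonic peaks with a match had a median of the mean value of 0.878, and those without 0.567. A footprint at the same place in both libraries was found in 88.5% of peaks with a match and 51.4% of those without. Over all exonic peaks this share rose with the mean value, from 60.9% between 0.5 and 1 to 89.6% between 1 and 3. Peaks with and without a match were not compared at like values. The Mroh6, Pgls, Crh, Slc4a3 and Lyl1 matches printed above each had a footprint in both libraries. The Slc4a3 peak had 5 footprints in replicate 1 and 4 in replicate 2, and the Lyl1 peak, in a blood transcription factor gene, 1 and 4. Values were 2.96 and 2.06 for Mroh6, 2.83 and 2.03 for Pgls, an enzyme of the pentose phosphate pathway, and 2.94 and 1.83 for Crh, which encodes corticotropin-releasing hormone.

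REST matches were few. They were found in 10 exonic peaks (0.293%), 84 intronic peaks (0.374%) and 0.362% of all shared peaks. Without replicate 1, the share among exonic peaks was 0.188%. All 10 exonic matches and 71 of the 84 intronic ones (84.5%) had a footprint over them in both libraries. Among those printed above, Tas1r3, a taste receptor subunit, had values of 1.81 in replicate 1 and 1.28 in replicate 2. Gja10, a connexin of retinal neurons, had 0.952 and 0.479. Cryba2, a crystallin of the lens, had 0.581 and 0.574, and Extl3, an enzyme of heparan sulfate synthesis, 0.565 and 0.540. The promoters of Tas1r3 and Gja10 had no peak in either library, while that of Extl3 had values of 13.8 and 16.1.

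Of the other consensus sequences searched, 4 are given here, chosen after their values were seen. GGGCGG, the GC box of SP and KLF factors, was present in 18.1% of exonic, 21.1% of coding and 15.3% of 3′ untranslated peaks, against 9.61% of intronic and 24.0% of all shared peaks. CCGGAAG, an ETS sequence, was present in 4.04% of exonic and 5.02% of coding peaks, against 1.81% of intronic and 4.82% of all. AGATAA, bound by GATA factors, was present in 6.26% of exonic and 4.34% of coding peaks, against 11.3% of intronic and 8.07% of all. TGTANCA, taken for DMRT factors, was present in 8.40% of exonic peaks, against 13.1% of intronic and 9.14% of all. Of these 4, the 2 GC-rich ones were thus more frequent and the 2 AT-rich ones less frequent in exonic than in intronic peaks, which also differed in GC. Footprints covered few of these matches in both libraries, 25.2% of GC boxes and 6.07% of GATA matches in exonic peaks, against 31.4% and 5.86% in intronic peaks.

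The exonic peaks lay in 2675 host genes, and 2139 of these held 1 peak. Trichohyalin (Tchh), a structural protein of hair follicles, held the most, 9 coding peaks in its last exon, with values of 0.263 to 0.989 in replicate 1 and 0.287 to 0.966 in replicate 2 and no promoter peak in either library. Some of these peaks overlap each other. Over all genes 143 exonic peaks (4.18%) overlapped another, and merging them left 3342 stretches. Mid1, an X-linked ubiquitin ligase gene that spans the pseudoautosomal boundary in C57BL/6 mice, held 8 peaks, from 0.253 to 2.58 in replicate 1 and 0.321 to 2.85 in replicate 2. All 8 lay within its exons 4 to 10. The X chromosome as a whole held 67 exonic peaks, or 27.1 per Mb of exon.

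Gnas, the imprinted gene of the stimulatory G protein, held 6 peaks, 4 coding and 2 in 3′ untranslated sequence, from 0.371 to 0.527 in replicate 1 and 0.332 to 0.506 in replicate 2. Vps33a, a lysosomal sorting gene, also held 6. All were in its 3′ untranslated last exon and had low values, from 0.124 to 0.312 in replicate 1 and 0.0868 to 0.204 in replicate 2, with no footprint at the same place. Dst, a cytoskeletal linker gene, held 5 peaks that reached 1.73 and 2.19, and Efnb2, an ephrin ligand gene, held 5 that reached 1.31 and 1.22. The 6 genes thus ranged from strong to barely detected peaks.

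Most host genes had an open promoter, but so did genes with an intronic peak. A promoter peak in both libraries was found for 84.5% of the exonic host genes, 86.0% of the 7285 genes with an intronic shared peak and 68.7% of all protein-coding genes. Counted by peaks, 2911 exonic peaks (85.2%) had such a host, against 20491 intronic peaks (91.3%). Some peaks were wide enough to reach within 1000 bp of a start and so could mark a promoter as open themselves. There were 151 of them, and of the other 3266 peaks 2762 (84.6%) had an open host promoter. In 362 of these 3266 (11.1%) the host promoter had no peak in either library.

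Host genes were also grouped by lists chosen with earlier results of these data known. Of 46 matched genes of meiotic prophase, 45 had an open promoter and 0 held an exonic peak. Their exons away from starts measured 0.159 Mb. A count of 3, taken as a rough upper limit for a count of 0, would be 18.9 peaks per Mb. This is below the 48.9 per Mb over all genes. The exons of the meiotic genes had a mean GC content of 40.1%, and all exons at that GC would give 2.75 peaks. A lower density than in exons of the same GC was therefore not detectable at this length. The piRNA pathway guards the germ line against transposons, and 3 of 26 of its genes held a coding peak. Tdrd5 had values of 1.38 in replicate 1 and 1.94 in replicate 2, Piwil4 0.409 and 0.755, and Tdrd1 0.360 and 0.630. The count of 3 compares with 2.93 at the same GC.

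Sertoli cell genes stand for the somatic cells of the tubule. Of 30 genes, 9 were hosts to 11 peaks, or 128 per Mb of exon against 48.9 per Mb over all genes, where all exons at the same GC would give 7.65 peaks. The promoter was open for 9 of 9 hosts and for 29 of all 30 genes of the list. Dmrt1 was among these hosts and is also in the list of spermatogonial genes below, so its peak is counted in both. Amh, which encodes anti-Müllerian hormone, had a coding peak in its last exon at 1.61 in replicate 1 and 1.53 in replicate 2, with 8 and 11 footprints. Inha, the alpha subunit of inhibin, had 1.15 and 1.22, and Sox9, the factor that sets Sertoli cell fate, 0.522 and 0.562. Gata4 and Inhbb held 2 peaks each. Dhh, a hedgehog ligand, had its peak in 3′ untranslated sequence at 0.909 and 1.24.

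Of 14 endothelial genes, 5 held 8 peaks, or 120.2 per Mb, where the same GC would give 5.08 peaks, with 2 in Sox17, 2 in Kdr and 2 in Vwf. Of 39 Hox genes, 4 held 7 peaks, or 119.7 per Mb, where the same GC would give 5.83 peaks. The promoter was open for 0 of these 4 genes and for 20 of all 39. However, Hoxb2 and Hoxb3 had a promoter peak in replicate 1 only and Hoxa3 in replicate 2 only, while Hoxc9 had none in either library. Hoxa3 was the strongest, and Hoxc9, Hoxb2 and Hoxb3 held 2 each. Spermatid genes held 8 peaks in 4 of 38 genes, against 6.59 at the same GC, with 3 of them in Odf2, a gene of sperm tail fibres. Spermatogonial genes held 4 peaks in 4 of 27 genes, against 5.05 at the same GC, among them Dmrt1 at 0.333 and 0.513.

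Olfactory and vomeronasal receptor genes held 13 in 1462 genes, or 3.52 per Mb, against 33.9 peaks at the same GC. Of these 13 peaks, 12 lay in last exons, where the share over all exonic peaks was 54.3%. How much of the exon length of these genes lies in last exons was not measured. Chromatin regulator genes held 9 peaks in 8 of 57 genes, against 26.4 at the same GC, with Setd1b, a histone H3 lysine methyltransferase, the strongest at 2.80 in replicate 1 and 2.02 in replicate 2. Genes for splicing and RNA binding held 1 peak in 36 genes, against 3.79 at the same GC, in Celf1. Ribosomal protein genes held 1 in 83 genes, against 1.94 at the same GC, in Rpl39. Leydig cell genes held 1 in 15 genes, against 2.25 at the same GC. It lay in Star, which moves cholesterol into mitochondria, at 0.527 and 0.578. Peritubular and stromal genes held 2, against 6.26 at the same GC, in Acta2 and Tcf21. Leukocyte and erythroid genes held 1 in 18 genes, against 3.00 at the same GC, in Cd3e. Genes taken by symbol as C2H2 zinc finger genes held 95 peaks in 64 of 462 genes, at 49.4 per Mb, against 88.3 peaks at the same GC. Last exons held 74 of the 95, but their share of the exon length of these genes was not measured either. The symbols also took in Zfp36l1 with 3 peaks, Zfp36l2 with 3 and Zfp36l3 with 1, which encode RNA-binding proteins with CCCH fingers. Collagen genes held 16 in 12 of 44 genes, against 18.7 at the same GC, with Col16a1 at 1.55 and 1.06. Clustered protocadherin genes held 4 in 4 of 56 genes, against 13.9 at the same GC.

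**Figure D5:**
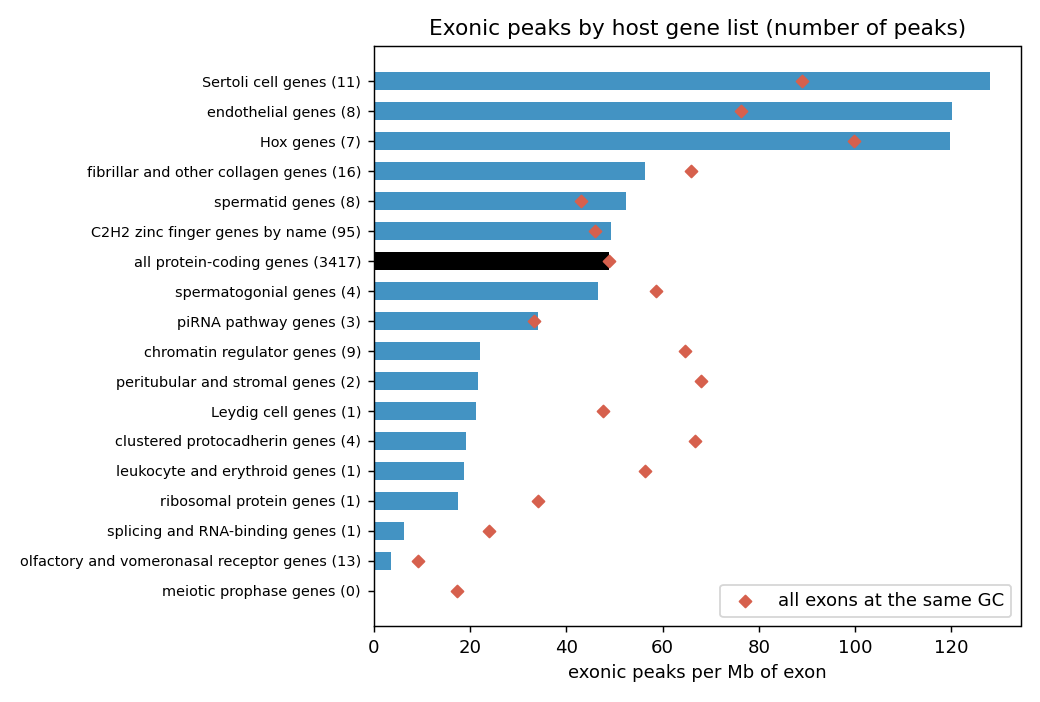
Exonic peaks per Mb of exon over 1000 bp from starts for each list of host genes (blue bars, number of peaks in brackets) and for all protein-coding genes (black bar); diamonds give the density of all exons at the GC content of the list's exons. Sertoli cell genes stand at 128 per Mb, and meiotic prophase genes at 0 with 2.75 peaks given by their GC.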

How the data were processed

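DNase-seq of mouse testis was deposited per library on mm10, per the file headers and the labels. The authors deposited peak lists whose column 7 is a signal value (whole multiples of 0.00538 in replicate 1 and 0.00377 in replicate 2), footprints, and stretches with a false discovery rate, a p-value adjusted for multiple tests, of the cut rate below 0.05. The sources used here do not give the aligner, the caller, their versions or the read depth. Replicates were not pooled, per the labels.

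The longer peak list of each library was used (101172 and 117359 peaks). When several replicate 2 peaks overlapped, the one with the largest overlap was the partner. Exons, starts and last exons of protein-coding genes came from GENCODE M21. Classes were assigned per base in the order coding, 5′ untranslated, 3′ untranslated, noncoding exon. A last exon is last in at least 1 multi-exon coding transcript, so exons of single-exon genes are not counted. A promoter was open if a peak of each library lay within 1000 bp of a start. GC was taken over 200 bp. Where a count at the same GC is given for a list, it uses the density of all exonic peaks by GC. Python 3.11.15, pandas 2.3.3, pysam 0.24.0 and bedtools 2.31.1 were used, and the overlap functions were tested on simulated intervals.

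The members and gene lists were chosen with earlier results of these data known. With 1 group, no test was made. Values are given per library or as mean ± SD (n = 2). Named peaks are, per exon class, those with most footprints and highest mean value, then the widest, those beside the limit, the hosts with most peaks (ties by symbol) and the leading hosts of each list. Not all are described, some sequences and peaks are not reported here, and other peaks of the lists and of CTCF and REST matches were named after their values were seen. No correction was made for mapping of CAST/EiJ reads to the mm10 reference; its effect was not tested. In all 17 consensus sequences were searched, and those of CTCF and REST are given by name without their letters.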

Additional observations from a re-analysis of the deposited data

How the results depend on the processing

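No paired analysis was possible because both libraries belong to 1 group. Overlap of 50% of both peaks gave 52.3% coding and 34.6% 3′ untranslated peaks, with 30.2% crossing an exon border, 59.6% in both stricter lists, 92.5% with a footprint and 6.77% with a CTCF match. The stricter lists gave 1741 exonic peaks in 1502 host genes, with 51.7% coding, 33.9% 3′ untranslated, 12.3% in noncoding exons, 26.5% crossing a border, 83.9% with an open host promoter, 94.2% with a footprint, 7.64% with a CTCF match and, by construction, 100% in both stricter lists. Their densities per Mb were 35.0 coding, 53.6 in 5′ untranslated, 18.7 in 3′ untranslated, 17.8 in noncoding and 24.9 in all exons, 13.4 in introns and 10.4 between genes. Values below 1 gave 58.6% coding and 29.8% 3′ untranslated, 37.1% in both stricter lists, 85.0% with a footprint and 3.51% with a CTCF match. A distance over 2500 bp gave 53.0% coding, 37.2% 3′ untranslated, 0.929% 5′ untranslated and 8.87% noncoding, 60.3% in last exons and 83.3% with an open host promoter. Counting only 5′ ends of genes as starts admitted other promoters and gave 5491 peaks, with 48.6% coding, 21.1% 3′ untranslated, 15.6% 5′ untranslated (341 per Mb) and 14.7% noncoding, 37.0% crossing a border, 37.6% in last exons, 53.9% in both stricter lists, 90.7% with an open host promoter and 4.43% with a CTCF match. Exons of protein_coding transcripts alone gave 62.4% coding, 35.7% 3′ untranslated, 0% noncoding by construction (with no density) and 60.8% in last exons. With 1 transcript per gene the classes were 27.2% 3′ untranslated, 1.23% 5′ untranslated and 0% noncoding.

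Either library alone gave 4499 to 5319 exonic peaks, the larger count without replicate 1, with 30.3 to 31.4% 3′ untranslated and 56.7 to 57.9% coding. Of these peaks, 26.5 to 27.2% crossed a border, 80.8 to 85.9% had a footprint and 4.23 to 4.91% a CTCF match. In the stricter list of the same library were 48.4 to 49.0%. Among the shared exonic peaks, 61.1% were in the stricter list of replicate 1 and 64.2% in that of replicate 2. The densities per Mb were 101 to 117 coding, 43.2 to 52.9 in 3′ untranslated, 64.3 to 76.1 in all exons and 23.4 to 28.0 between genes. The cause of these shifts was not tested.

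The ratios to introns at the same GC were chosen after seeing the data. They were 0.837 for coding sequence, 1.09 for coding last and 0.712 for other coding exons, 1.57 for 5′ untranslated and 0.920 for all exons, where all introns had given 2.91, 4.61, 2.29, 3.27 and 1.94. With distance matched too, they were 0.753, 0.981, 0.642, 1.24 and 0.843, with 0.986 for 3′ untranslated and 0.967 for noncoding exons, where all introns had given 1.38 and 1.22. The precision that read depth allows is unknown.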
